A study of Mus musculus with 9 samples.

Results

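RNA of the amino acid transporter genes was compared between cultured kidney mesenchyme cells with and without a mutation of Foxd2, a forkhead transcription factor gene. The genes were chosen by symbol. Every Slc1a, Slc6a, Slc7a, Slc36a, Slc38a or Slc43a symbol that ends in a number was taken, with the heavy chains Slc3a1 and Slc3a2. This gave 60 of the 45808 genes of the deposited count table. Slc6a20a and Slc6a20b, whose symbols end in a letter, were not among them and had too few reads to test. The Slc6a symbols also bring in carriers of creatine, taurine and monoamines. Of the 60, 24 had enough reads to be tested and 36 did not.

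Amino acids cross membranes through solute carriers that are grouped into families by sequence. Some, such as Slc38a1 and Slc38a2 of transport system A, use the sodium gradient to concentrate small neutral amino acids, whereas others are exchangers that trade an internal for an external amino acid. The heteromeric exchangers pair a light chain of the Slc7a family with a heavy chain, Slc3a2 or Slc3a1, which carries the complex to the cell surface. Amino acid shortage is sensed by the kinase GCN2, which acts through the transcription factor ATF4, and by the Rag and Sestrin proteins that control mTORC1.

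All libraries came from mK4, an immortalised mouse line of kidney mesenchyme, grown with 10% serum. The 5 control libraries were from cells given Cas9 with a guide that targets no gene, so that Foxd2 stayed wildtype. The 4 mutant libraries were from clone F7, in which CRISPR/Cas left a homozygous frameshift in Foxd2. The mutant is a single clone, so genotype and clone cannot be told apart, and the labels do not say that replicates were separate cultures, so p-values measure a spread between libraries that may be technical.

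The libraries held 6041556 to 16032175 counts, and the 2 lowest were F7 3 and F7 4 (6041556 and 6590712). Their columns in the raw table are headed mk3 and the other columns mk4. The normalized table heads the same libraries mk4, and their sample titles read mK4. Whether mk3 marks another line or is a spelling was not tested. A call that ended with either pair of F7 libraries is described with that pair's value. Foxd2 RNA rose from 3.73 ± 0.538 CPM in control to 18.3 ± 3.78 CPM in F7 (mean ± SD, as everywhere below, over 5 control and 4 F7 libraries). CPM are counts scaled to the library's size. Its edgeR log2 fold change was 2.30 (SE 0.16, adjusted p = 1.93e-07), and the counts do not show whether it carries the frameshift. Of 10 kidney mesenchyme markers, 5 reached 1 CPM, and their summed level was 517 to 561 CPM in control and 362 to 428 CPM in F7. Pax2 and Sall1 were called lower in F7, and Wt1, Six2, Osr1, Hoxd11 and Cited1 had too few reads to test. The summed markers of epithelium (at most 3.20 CPM), endothelium (at most 0.918 CPM) and blood (at most 8.26 CPM) were low in every library, and of the 5 neuronal markers (summed 86.2 to 127 CPM in control and 84.7 to 108 CPM in F7) Tubb3 alone reached 1 CPM. In such bulk RNA, fewer cells of a type and less RNA per cell cannot be told apart, and the part of any change in cell makeup in the results was not tested.

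Amino acid transporter RNA changed in both directions in F7. Of the 24 tested members, 7 rose (Slc38a1, Slc7a11, Slc1a4, Slc7a1, Slc6a8, Slc6a17 and Slc6a6) and 6 fell (Slc3a1, Slc7a6, Slc43a2, Slc38a2, Slc3a2 and Slc7a5) at an edgeR adjusted p under 0.05. This is 54.2% of the tested members, where 35.3% of all 14730 tested genes were called, 17.4% higher and 17.9% lower. The median log2 fold change was -0.06 over the members and -0.01 over all tested genes, and the median absolute change was 0.34 and 0.23. The control and F7 libraries did not overlap for 9 members, 5 higher and 4 lower in F7, and for 27.6% of all tested genes. Of these 9, Slc1a3 was not called. An absolute log2 fold change of 1 was reached by 3 called members, Slc38a1, Slc3a1 and Slc7a6.

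By family, calls in both directions were seen in Slc7a and Slc38a. Over all tested genes, 17.4% were called higher and 17.9% lower. In the Slc6a family, 3 of 4 tested members rose and none fell, and in the Slc1a family 1 of 4 rose. In the Slc7a family 2 of 5 rose and 2 fell, and in the Slc38a family 1 of 6 rose and 1 fell. Both heavy chains and the single tested Slc43a member fell, and neither tested Slc36a member was called.

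Per kilobase of annotated exon, the most abundant member in control cells was the glutamate and aspartate carrier Slc1a3, at 171 ± 13.0 CPM per kb (SD, n = 5). The light chain Slc7a5 followed at 123 ± 13.3, its heavy chain Slc3a2 at 92.0 ± 6.76, Slc38a2 at 70.4 ± 5.22 and the taurine carrier Slc6a6 at 62.4 ± 2.85 CPM per kb. The libraries of neighbours in this order did not overlap, except those of Slc38a2 (62.8 to 77.1) and Slc6a6 (57.4 to 64.6 CPM per kb). In F7 the order became Slc1a3 (200 ± 15.3 CPM per kb, SD, n = 4), Slc7a5 (96.7 ± 18.7), Slc6a6 (71.3 ± 2.20), Slc3a2 (70.0 ± 8.12) and Slc38a2 (52.4 ± 2.12). The F7 libraries of Slc6a6 lay within the range of Slc3a2 and all above those of Slc38a2.

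**Figure D1:**
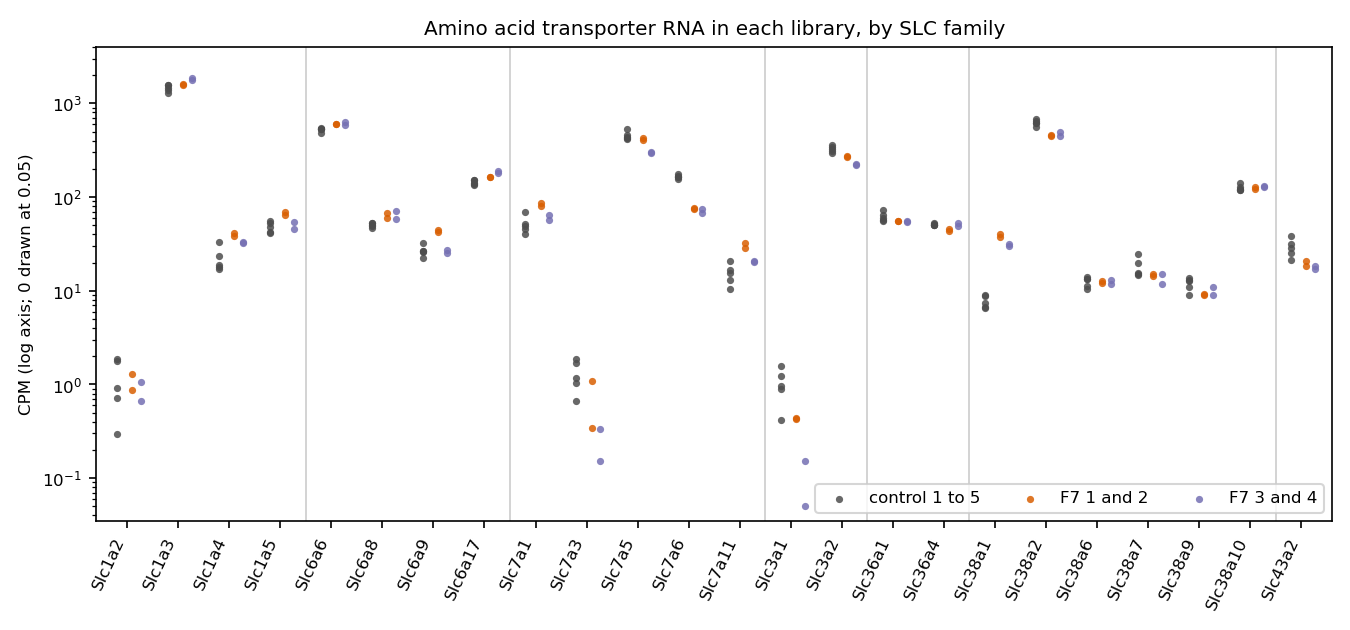
CPM of each tested member in every library on a log axis, ordered by SLC family, with control libraries in grey, F7 1 and 2 in orange and F7 3 and 4 in purple. Slc38a1 rose from between 6.59 and 8.96 CPM to between 30.4 and 40.2 CPM, while Slc7a6 fell from at least 155 CPM to at most 77.2 CPM.

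The largest increase among the members was in system A. Slc38a1 (SNAT1; ENSMUSG00000023169.15; mm10 chromosome 15, 96571418 to 96642913, minus strand) carries glutamine, alanine and other small neutral amino acids into the cell. It stood at 6.76, 6.59, 8.96, 7.43 and 8.85 CPM in control 1 to 5 and at 40.2, 37.5, 30.4 and 31.8 CPM in F7 1 to 4. Every F7 library was far above every control library, and the log2 fold change was 2.20 (SE 0.12, edgeR adjusted p = 3.12e-08).

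Slc38a2 (SNAT2; ENSMUSG00000022462.7; chromosome 15, 96687392 to 96699730, minus strand), the abundant system A carrier, fell. Its libraries held 619, 615, 555, 642 and 682 CPM in control and 448, 462, 454 and 490.2 CPM in F7. The groups did not overlap, and the log2 fold change was -0.43 (SE 0.07, edgeR adjusted p = 5.71e-04). The third system A gene, Slc38a4, had at most 5 reads in any library. As a share of the summed system A RNA per kb, Slc38a1 went from 0.635% ± 0.113 (SD, n = 5) to 3.73% ± 0.563 (SD, n = 4), so that Slc38a2 still made up 96.2% ± 0.583 in F7. These shares were computed after the changes were seen and were not tested.

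The remaining tested Slc38a genes were not called. Slc38a9, an arginine sensor of the lysosome, was at 11.9 ± 1.89 CPM in control and 9.59 ± 0.900 CPM in F7 (log2 fold change -0.33, edgeR adjusted p = 0.0701), and was called without control 3 (-0.41, adjusted p = 0.0136). Slc38a7, a lysosomal glutamine exporter, had a log2 fold change of -0.34 (adjusted p = 0.107). Slc38a10 was at 126 ± 9.22 and 127 ± 2.99 CPM, and Slc38a6 at 12.5 ± 1.58 and 12.5 ± 0.599 CPM.

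Slc38a1 and Slc38a2 are neighbours, with starts 116 kb apart, and moved in opposite directions. The 526 tested genes of chromosome 15 had a median log2 fold change of 0.04, and 5 of them had a higher value than Slc38a1. The 20 tested genes next to Slc38a1 in chromosome order, 10 on each side, had a median of -0.05 and ran from -0.90 (Gm17546) to 1.68 (Amigo2). Of the 50 other tested genes within 3 Mb, 7 were called higher and 8 lower.

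The exchanger light chain Slc7a6 and the heavy chain Slc3a2 fell. Slc7a6 (y+LAT2; ENSMUSG00000031904.5; mm10 chromosome 8, 106168857 to 106198706, plus strand) exports arginine in exchange for glutamine and sodium. Its level was 164, 155, 168, 163 and 175 CPM in control 1 to 5 and 77.2, 74.8, 68.1 and 75.2 CPM in F7 1 to 4. The groups were wide apart, and the log2 fold change was -1.16 (SE 0.06, edgeR adjusted p = 2.09e-08).

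Chromosome 8 as a whole was lower in F7, and this stands beside the result for Slc7a6. The 731 tested genes of the chromosome had a median log2 fold change of -0.35, and 82.4% were below 0. Slc7a6 lay 0.81 below that median (difference -0.81), with 43 genes of the chromosome lower than it. The 20 tested genes next to it in chromosome order, 10 on each side, had a median of -0.34 and ran from -2.04 (Esrp2) to 0.41 (Cdh1). Within 3 Mb, 46 of 74 other tested genes were called lower and 1 higher. Slc7a5 and Slc38a7, also on chromosome 8, lay 0.01 from the chromosome's median. The part of the chromosome in these values was not tested.

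**Figure D2:**
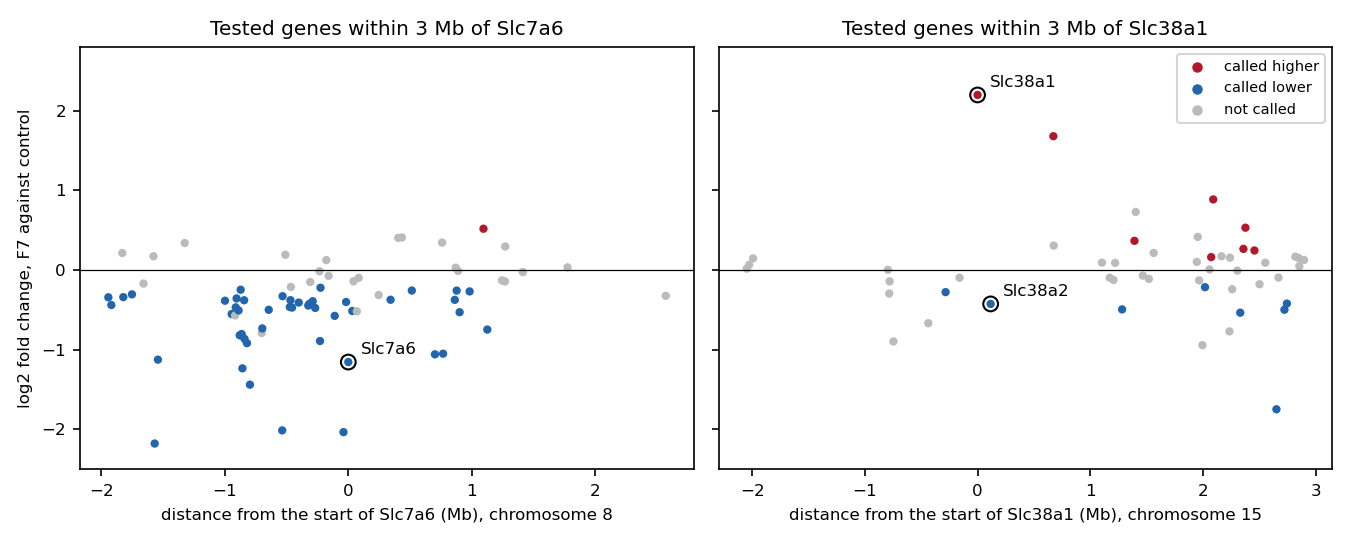
Log2 fold change of each tested gene within 3 Mb of the start of Slc7a6 (left) and of Slc38a1 (right) against its distance in Mb, coloured by call, with members ringed. Around Slc7a6, 46 of 74 other genes were called lower, whereas around Slc38a1 the calls were 7 higher and 8 lower of 50.

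Slc3a2 (4F2hc or CD98; ENSMUSG00000010095.13; chromosome 19, 8706882 to 8723369, minus strand), the partner of Slc7a5, Slc7a6 and Slc7a11, was at 322, 339, 295, 311 and 356 CPM in control and at 275, 268, 220.0 and 225 CPM in F7. No F7 library reached the lowest control library, and the log2 fold change was -0.39 (SE 0.08, edgeR adjusted p = 0.00306). With F7 1 and 2 as the mutant libraries it was -0.25 (adjusted p = 0.0584) and with F7 3 and 4 -0.54 (adjusted p = 0.00289).

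Slc7a5 (LAT1; ENSMUSG00000040010.10; chromosome 8, 121881150 to 121907694, minus strand) imports leucine and other large neutral amino acids. It stood at 463, 423, 418, 433 and 537 CPM in control and at 404, 432, 303 and 296 CPM in F7. F7 2 lay within the control range and F7 3 and 4 well below it. The log2 fold change of -0.34 (SE 0.12) just passed the threshold (edgeR adjusted p = 0.0418). It was -0.12 (adjusted p = 0.447) with F7 1 and 2 and -0.60 (adjusted p = 0.00457) with F7 3 and 4, and leaving out control 1, control 4, control 5, F7 3 or F7 4 ended the call (adjusted p = 0.0741, 0.0576, 0.0764, 0.122 and 0.125).

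Slc7a11 (xCT; ENSMUSG00000027737.10; chromosome 3, 49892526 to 50443614, minus strand), which takes up cystine in exchange for glutamate, rose. Its level was 13.0, 10.4, 16.5, 15.3 and 20.6 CPM in control and 32.3, 28.5, 21.0 and 20.3 CPM in F7. F7 4 lay just under control 5, and the other F7 libraries were above all controls. The log2 fold change was 0.79 (SE 0.19, edgeR adjusted p = 0.00888), at 1.02 (adjusted p = 0.00518) with F7 1 and 2 and 0.46 (adjusted p = 0.191) with F7 3 and 4.

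Per kilobase, the summed RNA of the light chains known to pair with Slc3a2 was 1.74 ± 0.110 times that of Slc3a2 in control (SD, n = 5) and 1.63 ± 0.104 times in F7 (SD, n = 4), with overlapping libraries. Within that sum Slc7a6 went from 22.6% ± 1.33 to 14.3% ± 2.08, Slc7a5 from 76.6% ± 1.34 to 83.9% ± 2.13 and Slc7a11 from 0.676% ± 0.132 to 1.59% ± 0.147. The group ranges did not overlap for any of these 3. The shares were formed after the changes were seen and were not tested.

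Slc3a1 (rBAT; ENSMUSG00000024131.8; chromosome 17, 85028376 to 85064236, plus strand), the heavy chain of the kidney's cystine and dibasic amino acid exchanger, was rare. It was at 0.965, 0.889, 1.25, 1.58 and 0.421 CPM in control and at 0.439, 0.429, 0 and 0.153 CPM in F7, so that control 5 lay below 2 of the F7 libraries. The log2 fold change was -1.67 (SE 0.52, edgeR adjusted p = 0.024), and without F7 4 it was -1.53 (adjusted p = 0.0595). It was -1.19 (adjusted p = 0.124) with F7 1 and 2 and -3.48 (adjusted p = 0.0442) with F7 3 and 4, of which F7 3 had no read. Without any 1 of control 1 to 4 the gene did not pass the filter. The gene overlaps Prepl on the opposite strand (35.7 CPM in control), and since the use of strand in counting is not given, reads of these genes cannot be told apart.

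The neutral amino acid exchangers of the Slc1a family and the glutamate carrier Slc1a3 had higher means in F7, of which Slc1a4 passed the test. Slc1a4 (ASCT1; ENSMUSG00000020142.12; chromosome 11, 20302180 to 20332713, minus strand), which carries alanine, serine and cysteine, was at 18.7, 17.1, 17.9, 23.8 and 33.4 CPM in control and at 41.8, 38.1, 32.4 and 32.9 CPM in F7. F7 3 and 4 lay just under control 5. The log2 fold change was 0.73 (SE 0.18, edgeR adjusted p = 0.0106), and 0.57 (adjusted p = 0.149) with F7 3 and 4 as the mutant libraries.

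Slc1a3 (GLAST; ENSMUSG00000005360.14; chromosome 15, 8634124 to 8710764, minus strand) was at 1398, 1472, 1300, 1564 and 1553 CPM in control and at 1599, 1586, 1778 and 1849 CPM in F7. Each F7 library was above each control library, yet the log2 fold change of 0.22 (SE 0.08) missed the threshold (edgeR adjusted p = 0.0531). It passed in 8 of 21 alternatives, among them DESeq2 (adjusted p = 0.0115) and the fit without control 5 (adjusted p = 0.0463). Slc1a5 (ASCT2), the sodium-dependent glutamine exchanger, was at 47.9 ± 5.81 and 58.5 ± 10.8 CPM (log2 fold change 0.30, adjusted p = 0.0691), and its call appeared without control 5 (adjusted p = 0.0449) or F7 4 (adjusted p = 0.0163). It was 0.50 (adjusted p = 0.00839) with F7 1 and 2 and 0.06 (adjusted p = 0.769) with F7 3 and 4. Slc1a2, a glutamate carrier, was near 1 CPM in both groups.

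The promoters of Slc7a11 and Slc1a4 are printed because each holds the letters TGATGNAA, the core of the amino acid response element that ATF4 is known to bind. They are RefSeq promoter sequences of build GRCm38.p6, given 5′ to 3′ on the gene's strand from 130 bases before the gene's start. The capitals mark the matches, which read TTGCATCA where the motif lies on the other strand. The Slc7a11 stretch is chr3:50443614-50443743, minus strand, and the Slc1a4 stretch is chr11:20332710-20332843, minus strand, which runs 4 bases past the start.
Slc7a11: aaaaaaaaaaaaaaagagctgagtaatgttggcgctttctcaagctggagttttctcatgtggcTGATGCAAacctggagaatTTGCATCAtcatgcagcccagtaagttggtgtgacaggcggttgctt
Slc1a4: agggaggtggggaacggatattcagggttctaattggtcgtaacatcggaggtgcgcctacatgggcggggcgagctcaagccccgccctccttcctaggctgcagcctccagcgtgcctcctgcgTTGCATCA
Slc7a11 has matches that begin 66 and 47 bases before the start, in opposite directions, and the match of Slc1a4 spans the start. In windows of 250 bases before to 50 after the start, on both strands, TGATGNAA occurred in 3.97% of 32851 promoters. Counted by gene, it occurred in 4.51% of 27025 genes and in these 2 of the 18 tested members with a promoter sequence (11.1%). Over all 42 members with a promoter sequence it occurred in 3 (7.14%), which include Slc7a7, a gene not tested. The motif was 1 of 7 searched and was picked for display after the matches were seen. TGATGCAA (0.895% of promoters) and TGATGNAAN (3.95%), which overlap it, matched the same 2 members. TGACGTCA (1.79%) matched Slc38a6, and TGACNNNGC (12.4%) matched Slc36a1, Slc38a2, Slc6a9, Slc7a1 and Slc7a6. TGACTCAGC (0.454%) and TTGCGCAA (0.183%) matched no tested member. Slc38a1, Slc7a5, Slc6a6, Slc6a8, Slc1a5 and Slc7a3 were not in this search. A match describes letters and no measured binding.

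The main carrier of cationic amino acids rose and the rarer ones had lower values. Slc7a1 (CAT1; ENSMUSG00000041313.14; chromosome 5, 148327410 to 148399904, minus strand), which imports arginine and lysine, was at 48.7, 45.9, 40.2, 51.8 and 69.9 CPM in control and at 79.5, 87.3, 64.9 and 57.4 CPM in F7. F7 3 and 4 lay below control 5 and above the other controls. The log2 fold change was 0.51 (SE 0.16, edgeR adjusted p = 0.0333). It was 0.71 (adjusted p = 0.0131) with F7 1 and 2 and 0.26 (adjusted p = 0.353) with F7 3 and 4, and the call ended without any 1 of control 1 to 4 (adjusted p = 0.0819, 0.0803, 0.0561 and 0.0595), F7 1 (0.095) or F7 2 (0.0972).

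Slc7a3 (CAT3) was at 1.28 ± 0.485 CPM in control and 0.482 ± 0.419 CPM in F7, and its log2 fold change of -1.19 was not called (edgeR adjusted p = 0.0618). It was -1.35 (adjusted p = 0.0331) without control 5 and -2.12 (adjusted p = 0.0118) without F7 1. Slc7a2 (CAT2; chromosome 8, 40862396 to 40922308, plus strand) had too few reads for the filter and is described because of its counts. Control 1 to 5 held 8, 8, 6, 7 and 10 reads and F7 1 to 4 held 1, 1, 0 and 0. After scaling by library size the control level was 11.4 times that of F7, with a 95% exact interval of 2.95 to 97.4 that covers counting error only. The authors' deposited table lists Slc7a2 with a log2 fold change of -3.65 and an adjusted p of 0.00254.

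All 3 Slc6a members that rose did so by small amounts with no overlap between groups. Slc6a6 (TauT; ENSMUSG00000030096.8; chromosome 6, 91684053 to 91759066, plus strand), the taurine carrier, was at 534, 546, 534, 485 and 537 CPM in control and at 599, 606, 581 and 626 CPM in F7. Control 4 was low and no control reached F7 3, the lowest of F7. The log2 fold change was 0.19 (SE 0.06, edgeR adjusted p = 0.0301), and the call ended without control 1, control 4, F7 1, F7 2 or F7 4 (adjusted p = 0.0558, 0.0835, 0.0678, 0.0684 and 0.0733). With either pair of F7 libraries it was 0.20 and not called (adjusted p = 0.0931 with F7 1 and 2 and 0.146 with F7 3 and 4).

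Slc6a8, the creatine carrier, was at 50.6 ± 2.68 CPM in control (n = 5) and rose to 64.4 ± 6.08 CPM in F7 (n = 4). Its log2 fold change was 0.35 (SE 0.07, edgeR adjusted p = 0.00264). Slc6a17, a neutral amino acid carrier of synaptic vesicles in neurons, rose from 144 ± 7.48 to 174 ± 13.2 CPM. Its log2 fold change was 0.27 (SE 0.07, adjusted p = 0.00693), and the value was 0.18 (adjusted p = 0.0859) with F7 1 and 2. Slc6a9 (GlyT1), a glycine carrier, was at 44.8 and 42.0 CPM in F7 1 and 2, above the highest control library (32.7 CPM), and at 25.0 and 26.9 CPM in F7 3 and 4, within the control range. It was not called over all 4 F7 libraries (log2 fold change 0.40, adjusted p = 0.0921), but was called without F7 3 (0.52, adjusted p = 0.0261) or F7 4 (0.50, adjusted p = 0.0446).

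Slc43a2 (LAT4; ENSMUSG00000038178.16; chromosome 11, 75531694 to 75577575, plus strand), which lets branched chain amino acids, methionine and phenylalanine leave or enter without exchange, fell. It was at 31.8, 29.0, 38.3, 25.3 and 21.4 CPM in control and at 20.7, 18.4, 17.0 and 18.2 CPM in F7. F7 1 lay just below control 5, the lowest control, and the log2 fold change was -0.64 (SE 0.15, edgeR adjusted p = 0.00512). With F7 1 and 2 as the mutant libraries it was -0.57 (adjusted p = 0.0557).

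The proton-coupled carriers of the Slc36a family were not called. Slc36a1 (PAT1; ENSMUSG00000020261.15; chromosome 11, 55204350 to 55236330, plus strand) was at 64.7, 72.1, 59.2, 55.1 and 56.3 CPM in control and at 55.0, 56.0, 55.3 and 54.3 CPM in F7. The F7 libraries lay at the bottom of the control range (log2 fold change -0.16, edgeR adjusted p = 0.14). Slc36a4, with a log2 fold change of -0.10 (adjusted p = 0.278), was at 51.0 ± 0.964 and 47.9 ± 4.16 CPM.

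The 36 untested members had at most 49 reads over all 9 libraries. No read was seen for 14 of them, among which were Slc1a1, Slc1a6, Slc6a3, Slc6a11, Slc6a13, Slc6a14, Slc6a15, Slc7a10, Slc7a12, Slc7a13, Slc7a14, Slc38a11 and Slc43a1. Slc1a1 and Slc7a13 are carriers of the renal tubule. The other 22 included Slc7a7 (49 reads), Slc7a2 (41), Slc7a4 (33), Slc36a2 (27), Slc6a19 (26) and Slc38a4 (21). Slc7a4 had 10 reads over the controls and 23 over F7, and the authors' deposited table calls it higher.

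The F7 libraries were not alike for the transporters. F7 1 and 2 both lay above F7 3 and 4 for 11 of 24 members (45.8%), Slc1a4, Slc1a5, Slc6a9, Slc7a1, Slc7a3, Slc7a5, Slc7a11, Slc3a1, Slc3a2, Slc38a1 and Slc43a2, and for 24.3% of all tested genes. They both lay below for 4 members (16.7%, against 25.5%), Slc1a3, Slc6a17, Slc36a4 and Slc38a10. When F7 1 and 2 were the mutant libraries, 7 members were called higher and 2 lower, where 4149 of 15551 tested genes were called. With F7 3 and 4 the counts were 3 and 6, where 2160 of 15430 tested genes were called, beside 5196 of 14730 with all F7 libraries. A direct comparison of the pairs, added after this was seen, called no member in either direction, where edgeR called 10 of all tested genes (0.0679%), 0.0611% higher and 0.00679% lower in F7 1 and 2. At an unadjusted p under 0.05 there were 8 members (33.3%), 6 of them higher in F7 1 and 2 (25%), where 9.13% of all tested genes passed and 3.87% were higher. Among these 8 were Slc6a9 (log2 difference 0.74, SE 0.15, adjusted p = 0.155) and Slc7a5 (0.48, SE 0.12, adjusted p = 0.266). Depth and the column heading of the raw table differ between the same pairs of libraries, so their parts cannot be told apart.

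**Figure D3:**
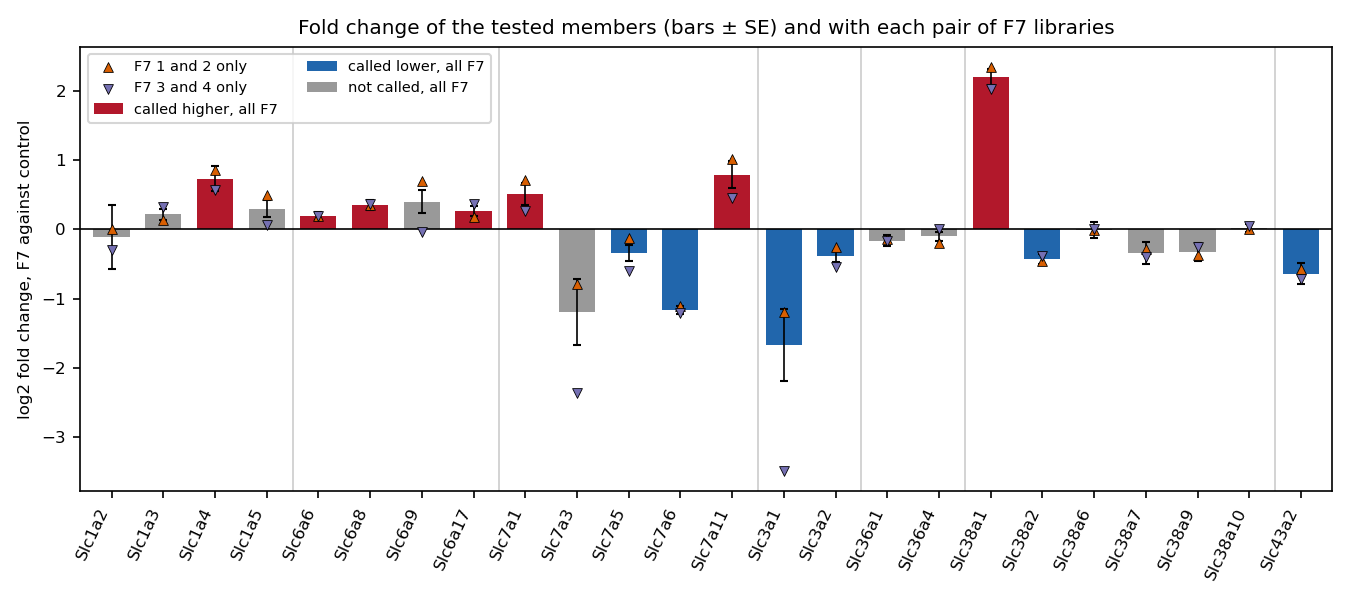
Log2 fold change of each tested member in F7 against control with all F7 libraries (bars, ± SE, coloured by call) and with F7 1 and 2 or F7 3 and 4 as the mutant libraries (triangles). Slc38a2, Slc7a6, Slc6a6 and Slc6a8 had close values with either pair, while Slc6a9 went from 0.70 to -0.04 and Slc7a5 from -0.12 to -0.60.

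Control 5 was often at an end of the control range. It was the highest control library for 9 of 24 members and the lowest for 8, where it was highest for 21% and lowest for 19.7% of all tested genes. It was highest for Slc1a4, Slc7a1 and Slc7a11, which rose, for Slc7a5, Slc7a6, Slc3a2 and Slc38a2, which fell, and for Slc1a5 and Slc6a9, which were not called. Leaving it out gave 9 members higher and 6 lower, where 5373 of 14581 tested genes were called.

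**Figure D4:**
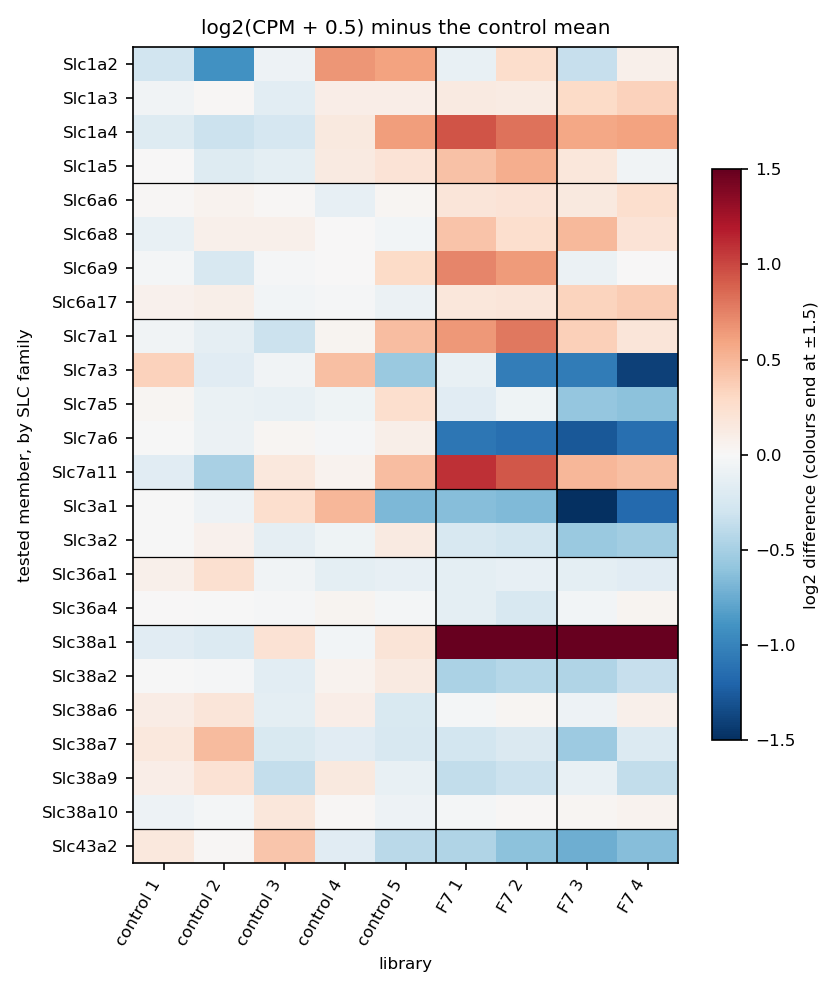
Log2(CPM + 0.5) of each tested member in each library, minus its mean over the 5 control libraries, with red for higher and blue for lower. Slc38a1 is deep red and Slc7a6 deep blue in all 4 F7 libraries, and Slc1a4, Slc7a1 and Slc7a11 are red in control 5 and deepest red in F7 1 and 2.

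Genes that sense amino acid supply were described beside the members. Of 12 genes of the GCN2 and ATF4 pathway, all tested, 5 rose and none fell (41.7% called), with a median log2 fold change of 0.30 beside -0.01 over all tested genes, of which 35.3% were called and 17.4% rose. Atf4, the transcription factor, rose from 263 ± 33.0 to 353 ± 61.3 CPM (log2 fold change 0.43, edgeR adjusted p = 0.0148). Eif2ak4, which encodes GCN2, rose by 0.34 (adjusted p = 0.00973) and Nupr1, a stress-induced gene, by 0.40 (adjusted p = 0.00939) on the log2 scale.

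Asns, which encodes asparagine synthetase, and Trib3 are known ATF4 targets and were picked out after their values were seen. Other stress genes of the same list did not pass: Atf3 was at 12.6 ± 5.46 and 5.96 ± 2.31 CPM (log2 fold change -1.01, adjusted p = 0.0579), Ddit3 at 18.3 ± 7.36 and 18.1 ± 2.17 CPM (-0.01, 0.974), Chac1 had 0.39 (0.187) and Sesn2 0.26 (0.139). Asns was at 83.6, 62.2, 84.6, 121 and 152 CPM in control and at 248, 251, 152 and 145 CPM in F7. F7 1 and 2 were high, whereas F7 3 and 4 were level with control 5, and the log2 fold change was 0.99 (edgeR adjusted p = 0.0311). Trib3 had a log2 fold change of 0.80 (adjusted p = 0.0244). With F7 3 and 4 as the mutant libraries none of these 5 genes was called (Atf4 0.20, adjusted p = 0.262; Eif2ak4 0.35, 0.0674; Nupr1 0.38, 0.108; Asns 0.57, 0.27; Trib3 0.41, 0.293). Single libraries also ended calls: that of Atf4 without F7 1 (adjusted p = 0.0548), that of Asns without control 1, 2 or 3, F7 1 or F7 2 (0.082, 0.0546, 0.0619, 0.0887 and 0.0848), and that of Trib3 without control 1, F7 1 or F7 2 (0.0657, 0.0763 and 0.0698).

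Of 24 tested genes of amino acid sensing by mTORC1, 3 rose and 4 fell, with a median log2 fold change of 0.03. This is 29.2% called, below the 35.3% of all tested genes. Sesn1, of the Sestrin family, fell from 33.1 ± 2.71 to 22.5 ± 4.36 CPM (log2 fold change -0.59, edgeR adjusted p = 0.00193). Gatsl2, an older symbol of the arginine sensor subunit Castor2, fell by 0.57 (adjusted p = 1.23e-04) and Wdr59, of the GATOR2 complex, by 0.35 (adjusted p = 0.00571) on the log2 scale. Wdr59 lies on chromosome 8. With F7 3 and 4 as the mutant libraries the calls of Sesn1 (adjusted p = 0.0673) and Wdr59 (adjusted p = 0.146) ended.

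Among 6 further tested transporters listed with amino acid transport, 1 fell and 5 were not called, with a median log2 fold change of -0.16. The 5 include the nucleoside carrier Slc29a3. This is 16.7% called, beside 35.3% of all tested genes. The gene that fell was Slc16a10 (TAT1), which carries aromatic amino acids and is known to export them in kidney and gut. It was at 10.6, 8.82, 10.6, 10.2 and 10.4 CPM in control and at 0.146, 0.343, 0.672 and 0.765 CPM in F7. All F7 libraries were far below the controls, and the log2 fold change was -4.62 (SE 0.27, edgeR adjusted p = 4.96e-08). Mfsd12 and Ctns, the lysosomal cysteine and cystine carriers, had log2 fold changes of -0.22 (adjusted p = 0.138) and -0.15 (adjusted p = 0.266).

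Of 14 mitochondrial carriers listed with amino acid transport, all tested, 2 rose and 5 fell (50% called), with a median log2 fold change of -0.16. The list also holds the glutathione carriers Slc25a39, which was among the 2 that rose, and Slc25a40, which was not called. Sfxn2 (log2 fold change -0.84, edgeR adjusted p = 1.79e-05) and Sfxn3 (-0.24, adjusted p = 0.00461), of the sideroflexin family, and the glutamate carrier Slc25a18 (-1.52, adjusted p = 0.00589) had the smallest adjusted p of the 14. Sfxn2 (start 46573365) and Sfxn3 (start 45047503) lie on chromosome 19 near Pax2 (start 44756045), which fell by 1.64 on the log2 scale. The part of this position in their values was not tested. Of 8 tested partners and regulators of transporters, none rose and 3 fell (37.5% called, close to the 35.3% of all tested genes), with a median of -0.06. These were Sgk3, a kinase known to raise carrier activity (-1.86, adjusted p = 2.36e-04), the ubiquitin ligase Nedd4l (-0.32, adjusted p = 0.00161) and the scaffold gene Slc9a3r1 (-0.25, adjusted p = 0.0113). Sgk3 was rare, at 3.46 ± 0.828 CPM in control and 0.93 ± 0.286 CPM in F7. The related and more abundant kinase Sgk1 was at 95.5 ± 18.2 and 103.5 ± 32.1 CPM and was not called (0.13, adjusted p = 0.662). With F7 3 and 4 the calls of Slc9a3r1 (adjusted p = 0.145) and Sfxn3 (0.11) ended, and with F7 1 and 2 that of Slc25a18 (0.0511).

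Of 16 tested genes that use glutamine, branched chain amino acids and cystine, 3 rose and 4 fell, with a median log2 fold change of 0.03. This is 43.8% called, beside 35.3% of all tested genes. Gclm, a subunit of the first enzyme of glutathione synthesis, which uses cysteine, fell from 235 ± 13.9 to 166 ± 9.27 CPM (log2 fold change -0.50, edgeR adjusted p = 6.10e-05), while the cystine importer Slc7a11 rose. Cbs, an enzyme of cysteine synthesis, was near 1 CPM and fell (log2 fold change -1.63, adjusted p = 0.0109), with adjusted p of 0.0628 with F7 1 and 2 and 0.116 with F7 3 and 4.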

How the data were processed

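RNA of 9 libraries was analysed, 5 control and 4 F7, grouped by their titles. Per the submitters' processing notes, the authors counted reads per gene with featureCounts on mm10 and used DESeq2 1.18.1 under R 3.4.3. No source used here names the aligner, the annotation or the strand setting. Raw counts were deposited by the authors, which every test used, and a normalized signal, the same counts divided by 1 factor per library, used only as a check. The log2 fold changes and adjusted p-values of the authors' deposited comparison appear only in sentences that name that table. The 2 per-library tables each hold 1 further F7 column that matches no sample, which was not used. Whether the authors' deposited comparison used it is not known, so that comparison may rest on other libraries than the 9 used here.

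Counts of 14730 genes passing filterByExpr (minimum count 10, minimum total 15) were fitted with edgeR 4.0.16 in R 4.3.3 (quasi-likelihood, robust, TMM, group only, Benjamini-Hochberg over these genes, called at an adjusted p under 0.05) after tests on simulated data. CPM use TMM-scaled totals, and lengths and positions come from the GENCODE annotation of mm10. The members and lists were chosen with earlier results of these data known. Named were every called member, others whose mean log2 CPM reached 5, up to 3 genes of each other list with the smallest adjusted p, and, chosen after their values were seen, Slc7a2, Slc7a4, Asns, Trib3 and the remaining members described. Some genes that this would name are not reported here. Values per library are given for called members past an absolute log2 fold change of 0.5 and the most abundant of each family, and for others where a pair of libraries differs. No 2 libraries agreed within sampling noise. Alternatives were other scalings and filters, DESeq2 1.42.0, limma 3.58.1 voom, the replicate block, libraries left out, an adjusted p under 0.01, a length offset and the authors' table.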

Additional observations from a re-analysis of the deposited data

Results flagged for a closer look

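Over the named genes, 76 groups of libraries were searched for a single library apart from the rest by Dixon's test at its 95% level, and 3 (3.95%) had one, where chance gives about 5%. Slc6a6 was at 485 CPM in control 4, below the 534 to 546 CPM of the other controls. Slc16a10 was at 8.82 CPM in control 2, below 10.2 to 10.6 CPM in the other controls. Slc25a18 was at 1.20 CPM in F7 2, above 0.585 to 0.672 CPM in the other F7 libraries.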

How the results depend on the processing

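Over 22 alternatives, Slc38a1, Slc38a2, Slc6a8 and Slc7a6 passed in every one. The count of members called higher (7) was 3 with F7 3 and 4 as the only mutant libraries and 4 at an adjusted p under 0.01, and the count called lower (6) was 2 with F7 1 and 2 only. Over all tested genes, these settings called 2160 of 15430, 2894 of 14730 and 4149 of 15551, beside 5196 of 14730 for all 9 libraries. Leaving out each library gave 5 to 9 higher and 4 to 7 lower, where 3543 to 5872 tested genes were called. With the replicate block, which called 5149 of 14730 tested genes, there were 6 higher and 7 lower. Slc6a6 and Slc7a5 were then not called, and Slc7a3 and Slc38a7 were called lower. Same-numbered libraries 1 to 4 correlated at -0.05, 0.07, 0.21 and -0.05 after group means were removed. Control 2 and 3 correlated best with the F7 library of their own number, and control 1 and 4 with F7 2. Whether same-numbered libraries share a batch was not tested. Without control 3 and 5 the counts were 7 and 9 (6833 of 14919 tested genes called), and with no filter 6 and 7 (5247 of 27659). The authors' deposited table calls 9 and 7 (5405 of 27798 genes). Over the 24 tested members, signs changed for 5, none of them called over all 9 libraries: Slc6a9 (0.40 to -0.04 with F7 3 and 4), Slc1a2 (-0.11 to at most 0.24, with the block), Slc38a6 (-0.01 to at most 0.06), Slc36a4 (0.01 with F7 3 and 4) and Slc38a10 (-0.01, -0.00 and -0.01 without control 1, 2 and 5, with 0.06 as the highest value over libraries left out, without control 3). The causes were not tested. The members near 1 CPM rest on few reads.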
